A study of Homo sapiens with 60 samples.

Results

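The 38 genes described here encode proteins that act at the entry into mitosis, on the spindle, at the kinetochore and in the division of the cell body. They are a list of gene names: each was found by its symbol among the 60675 rows of the count table, all 38 were present, and all 38 were among the 17516 genes that passed the filter on low counts. The list was chosen with earlier results of these data known. Counts of its members beside shares of all genes therefore describe the list and are not an independent test. The cells were SW1783, an established human astrocytoma line, treated for 24 h with water extracts of herbs used as tonics in East Asian medicine, and bulk RNA was sequenced. The 60 libraries used came from 25 groups. For Cinnamomi Cortex (cinnamon bark), Astragali Radix, Cnidii Rhizoma, Rehmanniae Radix Preparata and the mixture Sagunja-tang there were 3 libraries at each of 20, 100 and 500 µg/mL, which the labels call the Low, Medium and High dose. The mixture Samul-tang had 2 libraries at each dose, Angelicae Gigantis Radix and Paeoniae Radix had 1 at each dose, and the vehicle group had 3 libraries of cells that received DMSO alone. All groups share the cell line and the time point, so every value describes 1 cell line at 1 time. The labels do not say that replicates were separate cultures, so p-values measure only the spread between these libraries.

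Libraries held 20604792 to 29609799 counts. The vehicle libraries carry one set code and the extracts carry others, so the set and the treatment cannot be told apart in any comparison with vehicle; High and Low of one extract lie within a set. All comparisons with vehicle use the same 3 vehicle libraries. The labels name DMSO for the vehicle alone, so whether the solvent also differed from that of the extracts is not known. Sagunja-tang Low replicate 1 stood apart: in that library the median gene with a transcript of at least 8 kb lay at -0.60 and the median gene under 2 kb at 0.37 (log2 ratio to the vehicle mean), and results that rest on it are given with and without it. Of 11 astrocyte markers, GFAP, S100B, AQP4, ALDH1L1, SLC1A2 and FABP7 were under 1 CPM (counts scaled to the size of the library) in every library. VIM held 4661 to 6035 CPM, GJA1 162 to 286, SOX9 43.7 to 90.9, SLC1A3 11.65 to 28.7 and NES 4.22 to 9.09 CPM. The summed astrocyte markers, most of which was VIM, were 5728 to 6048 CPM in the Cinnamomi Cortex High libraries, 5596 to 5949 CPM at the Low dose and 6186 to 6405 CPM in vehicle. Summed neuron markers, of which TUBB3, SYT1, SNAP25 and GAD1 reached 1 CPM, were lower at the High dose, at 131 to 138 CPM against 162 to 171 CPM at the Low dose and 174 to 175 CPM in vehicle. Summed leukocyte markers, of which PTPRC alone reached 1 CPM, were 4.25 to 4.70 CPM at the High dose, 10.4 to 12.1 CPM at the Low dose and 8.72 to 9.22 CPM in vehicle. Summed endothelial markers were 28.9 to 33.6, 29.4 to 35.5 and 30.7 to 32.3 CPM in the same order of groups. The part of these marker levels in the results was not tested.

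A dividing cell raises cyclin B with its kinase CDK1 to enter mitosis, builds a bipolar spindle with motor proteins of the kinesin family, and attaches each chromosome to spindle fibres at the kinetochore, a protein plate built on the centromere. A checkpoint holds the cell until every kinetochore is attached, after which the anaphase-promoting complex marks securin and cyclin B for destruction and the cell body is cleaved. Transcripts of most of these genes peak late in the cycle, so in bulk RNA fewer dividing cells and less RNA of these genes per cell cannot be told apart. Many of their promoters carry the letters of the cell cycle homology region, read by the DREAM and MuvB complexes, and CCAAT boxes, read by NF-Y.

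Promoters from 250 bases before to 50 after the start, as given by RefSeq on GRCh38.p14, were at hand for 33 of the 38 genes. The letters TTTGAA or TTCGAA, on either strand, stood in 24 of 33 (72.7%), against 19.5% of all 27305 genes with a promoter. CCAAT, on either strand, stood in 26 of 33 (78.8%), against 39.7% of all genes. A match of letters is a description and not a site of binding. The promoters of the 3 members with the largest changes below, and of CCNB2, the member that lay under vehicle in the most comparisons, are shown with matches in capitals. In MKI67 the run TTTGAATTGG holds both motifs, which share 1 base (TTTGAA and ATTGG, the reverse of CCAAT). CENPE (chr4:103198294-103198593, minus strand) held neither motif, MKI67 (chr10:128126374-128126673, minus strand) held 2 of each, and CENPF (chr1:214602945-214603244, plus strand) and CCNB2 (chr15:59104896-59105195, plus strand) each held 1 of the first and 4 of the second.
CENPE: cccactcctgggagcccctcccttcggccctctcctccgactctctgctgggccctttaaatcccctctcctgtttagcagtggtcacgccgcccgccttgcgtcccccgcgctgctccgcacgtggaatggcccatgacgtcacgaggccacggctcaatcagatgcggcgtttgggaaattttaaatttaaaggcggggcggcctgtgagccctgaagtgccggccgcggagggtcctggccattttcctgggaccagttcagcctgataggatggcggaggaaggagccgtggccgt
MKI67: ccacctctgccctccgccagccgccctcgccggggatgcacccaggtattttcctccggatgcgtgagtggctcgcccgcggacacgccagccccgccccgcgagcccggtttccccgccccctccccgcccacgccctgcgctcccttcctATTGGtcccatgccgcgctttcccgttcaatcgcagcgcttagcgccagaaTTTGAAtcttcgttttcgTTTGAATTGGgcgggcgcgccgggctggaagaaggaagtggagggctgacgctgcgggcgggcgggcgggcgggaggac
CENPF: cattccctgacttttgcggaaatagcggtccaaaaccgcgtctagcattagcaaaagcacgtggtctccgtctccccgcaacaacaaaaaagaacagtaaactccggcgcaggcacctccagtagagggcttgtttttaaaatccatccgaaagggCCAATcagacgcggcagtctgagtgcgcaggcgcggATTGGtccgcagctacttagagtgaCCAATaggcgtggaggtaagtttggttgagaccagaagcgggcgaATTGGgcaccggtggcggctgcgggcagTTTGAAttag
CCNB2: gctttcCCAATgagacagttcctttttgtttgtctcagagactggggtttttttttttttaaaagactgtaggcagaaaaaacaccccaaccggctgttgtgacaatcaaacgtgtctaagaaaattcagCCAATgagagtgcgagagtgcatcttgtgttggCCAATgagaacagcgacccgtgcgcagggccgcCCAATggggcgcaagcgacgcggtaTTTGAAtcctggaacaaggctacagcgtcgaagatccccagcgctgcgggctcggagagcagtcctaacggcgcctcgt
The 24 genes with TTTGAA or TTCGAA had a median log2 fold change of -0.29 in Cinnamomi Cortex High against vehicle, and the 9 without had -0.31. Against the Low dose these medians were -0.23 with the letters and -0.11 without them. The 26 genes with CCAAT had a median of -0.33 against vehicle and -0.16 against the Low dose, and the 7 without had -0.26 and -0.23.

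Cinnamon bark extract at 500 µg/mL lowered a large share of the members. In edgeR's quasi-likelihood test with Benjamini-Hochberg adjustment over all genes, 21 of 38 were lower and 0 higher than in vehicle, where 10.9% of all genes tested were called lower, 11.8% higher and 22.8% in either direction. Against the Low dose of the same extract, within one set, 15 were lower and 0 higher, where 11.2% of all genes were called lower, 10.3% higher and 21.6% in either direction. All 15 were also among the 21. The median log2 fold change of the 38 was -0.26 against vehicle and -0.19 against the Low dose, and that of all genes was 0.00 against vehicle. In 30 members all 3 High libraries lay below all 3 vehicle libraries (24.1% of all genes did so), and 23 lay below all 3 Low libraries (21% of all genes). CDK1 and CENPA lay above vehicle in all 3 libraries (22.6% of all genes), and UBE2C, CENPA, KIF2C and BIRC5 lay above all Low libraries (20.5%), though none of these passed the test. Without Sagunja-tang Low replicate 1, which enters the common estimate of the spread, 30 members were called against vehicle, all lower, and 24 against the Low dose, of which 21 were lower and UBE2C, CENPA and KIF2C were higher. In that fit 18.2% of all genes were called lower than vehicle and 17.5% higher, and 17.5% were called lower than the Low dose and 18.2% higher. Of the 21 calls against vehicle, those of CCNB1, CCNB2, AURKA and NDC80 were lost without the filter on low counts, those of CCNB1 and PRC1 with library size alone and that of CCNB1 with GC offsets alone. Of the 15 against the Low dose, those of NDC80, KIF4A, TPX2 and DLGAP5 were lost without the filter, those of NDC80 and DLGAP5 with library size alone and that of NDC80 with length offsets alone.

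**Figure D1:**
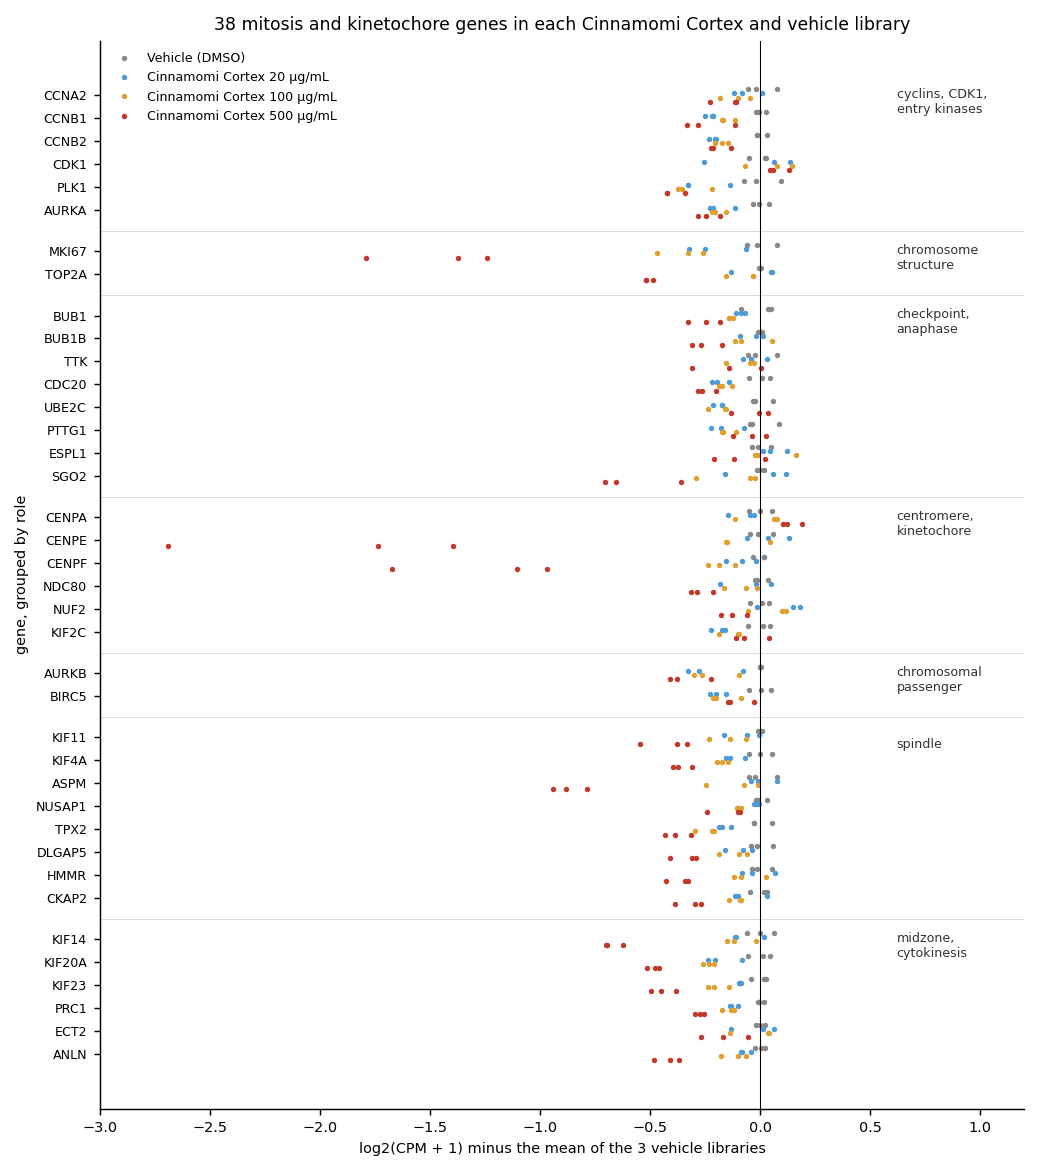
Each row is one of the 38 genes and each point is 1 library of vehicle or of Cinnamomi Cortex at 20, 100 or 500 µg/mL; the x axis is log2(CPM + 1) minus the vehicle mean. The 500 µg/mL points of CENPE, MKI67 and CENPF lie far to the left and apart from each other, while those of UBE2C, PTTG1 and KIF2C lie near the vehicle points and partly overlap them.

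The largest changes of single members were in CENPE, MKI67 and CENPF. Of 6 members at the centromere and kinetochore, 3 were lower in both comparisons and the median against vehicle was -0.19. CENPE, the kinesin that carries chromosomes along spindle fibres to the metaphase plate (GRCh38 chr4:103105806-103198409), had 19.1, 24.4 and 9.37 CPM in the High libraries, against 63.2, 67.6 and 72.3 CPM in the Low libraries and 68.6, 65.5 and 63.7 CPM in vehicle. All 3 High libraries were far below every other group and replicate 3 was the lowest by a wide margin. Its log2 fold change was -1.89 ± 0.15 (SE, n = 3 each) against vehicle, with an adjusted p of 8.63e-13 in edgeR's test, and -1.93 ± 0.15 against the Low dose, with an adjusted p of 4.86e-13 in the same test. CENPF, a large protein of the outer kinetochore (chr1:214603195-214664588), had 128, 141 and 86.2 CPM at the High dose, against 249, 273 and 261 CPM at the Low dose and 280.3, 280.1 and 271 CPM in vehicle. Again no High library reached the others, and replicate 3 was the lowest. The change was -1.21 ± 0.15 against vehicle and -1.14 ± 0.14 against the Low dose (adjusted p = 1.74e-08 and 7.48e-08, edgeR). NDC80, which binds the end of the spindle fibre, had 32.8, 33.5 and 35.2 CPM at the High dose, against 36.0, 40.4 and 42.5 CPM at the Low dose and 40.3, 42.1 and 40.7 CPM in vehicle. The High libraries were just below the others, and the call against the Low dose (adjusted p = 0.0316, edgeR) ended when High replicate 1 or 2 or Low replicate 2 or 3 was left out. NUF2, its partner in the same complex, changed by -0.11 against vehicle (adjusted p = 0.436, edgeR). KIF2C, a kinesin that takes apart spindle fibres at the centromere, differed by -0.03 (adjusted p = 0.723), and CENPA, the histone H3 variant that marks the centromere, by 0.16 ± 0.09 (adjusted p = 0.213).

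Both members that act on chromosome structure were lower. MKI67 encodes Ki-67, which coats mitotic chromosomes and is the standard stain for cycling cells (chr10:128096659-128126385). It had 127, 139.7 and 95.1 CPM at the High dose, against 317, 279 and 264 CPM at the Low dose and 349, 318 and 329 CPM in vehicle. The 3 High libraries were all below the lowest of the other 6, with replicate 3 again the lowest. The log2 fold change was -1.44 ± 0.16 against vehicle (adjusted p = 1.56e-09, edgeR) and -1.24 ± 0.16 against the Low dose (adjusted p = 4.94e-08, edgeR). TOP2A, the topoisomerase that untangles sister chromosomes (chr17:40388516-40417950), had 329.7, 322 and 323 CPM at the High dose, against 422, 480.2 and 479 CPM at the Low dose and 464, 463 and 461 CPM in vehicle. Its High libraries lay close together and below all others, and the change was -0.50 ± 0.05 in both comparisons (adjusted p = 1.04e-09 against vehicle and 9.18e-10 against the Low dose, edgeR).

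On the spindle, 6 of 8 members were lower in both comparisons. ASPM, which holds spindle poles together (chr1:197084128-197146694), had 65.6, 73.0 and 68.3 CPM at the High dose, against 123, 134 and 126 CPM at the Low dose and 134, 125 and 122 CPM in vehicle. The High libraries were close to each other and well apart from the other groups, with changes of -0.87 ± 0.18 and -0.88 ± 0.18 (adjusted p = 0.000258 against vehicle and 0.000206 against the Low dose, edgeR). KIF11, the motor that pushes the poles apart, had 82.4, 92.7 and 95.6 CPM at the High dose, against 107, 120.2 and 116 CPM at the Low dose and 121, 120.0 and 121 CPM in vehicle. The groups did not overlap, and the change was -0.40 ± 0.10 against vehicle (adjusted p = 0.00145, edgeR) and -0.34 ± 0.10 against the Low dose (adjusted p = 0.00791), a call that ended without High replicate 1. HMMR, a spindle-pole protein, had 80.1, 85.1 and 86.1 CPM at the High dose, against 105, 113 and 102 CPM at the Low dose and 107, 112 and 106 CPM in vehicle. Its 3 High libraries were below the rest, and the change was -0.36 ± 0.07 against vehicle (adjusted p = 0.00012, edgeR) and -0.35 ± 0.07 against the Low dose. TPX2, which activates Aurora A on the spindle, had 234, 253 and 241 CPM at the High dose, against 288, 277 and 279 CPM at the Low dose and 327, 309 and 309 CPM in vehicle. Here the Low libraries lay between the High and the vehicle libraries, and the change was -0.36 ± 0.06 against vehicle and -0.21 ± 0.06 against the Low dose (adjusted p = 2.4e-06 and 0.00465, edgeR). KIF4A, a chromosome-bound kinesin, had 92.5, 88.5 and 87.0 CPM at the High dose, against 104, 109 and 103 CPM at the Low dose and 119, 111 and 115 CPM in vehicle. DLGAP5, which stabilises fibres near the chromosomes, had 81.9, 88.9 and 87.7 CPM at the High dose, against 97.4, 106 and 103 CPM at the Low dose and 114, 108 and 106 CPM in vehicle. Neither gene's High libraries overlapped the others, and both were called lower by edgeR, KIF4A with an adjusted p of 0.013 and DLGAP5 with 0.034 against the Low dose. Both of these calls ended without High replicate 3 or without Low replicate 2, and that of DLGAP5 also without High replicate 1 or Low replicate 3. NUSAP1, which bundles spindle fibres, and CKAP2, a spindle-associated protein, changed by -0.13 and -0.31 against vehicle and did not pass the test (adjusted p = 0.128 and 0.0539, edgeR). Over the alternative fits listed under the processing, their adjusted p (edgeR or DESeq2) ran from 0.0160 to 0.592 and from 3.00e-06 to 0.167.

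At the midzone, where the cell body is cleaved, 4 of 6 members were lower than in vehicle and 3 were lower than at the Low dose. KIF14, a kinesin needed for cytokinesis (chr1:200551497-200620734), had 30.8, 32.5 and 30.8 CPM at the High dose, against 46.6, 51.1 and 46.8 CPM at the Low dose and 52.9, 48.4 and 50.4 CPM in vehicle. All 3 High libraries sat in a narrow range far below the rest, with changes of -0.68 ± 0.13 against vehicle and -0.61 ± 0.13 against the Low dose (adjusted p = 0.000125 and 0.000442, edgeR). KIF20A, a kinesin that brings Polo-like kinase 1 to the midzone, had 96.6, 100.2 and 99.0 CPM at the High dose, against 131, 117 and 120.0 CPM at the Low dose and 142, 133 and 139 CPM in vehicle. KIF23, a kinesin of the centralspindlin complex, had 90.6, 97.9 and 93.5 CPM at the High dose, against 120.4, 119.6 and 120.1 CPM at the Low dose and 130.2, 129.6 and 124 CPM in vehicle. In both genes the groups were ordered High, Low and vehicle with no overlap. KIF20A changed by -0.47 ± 0.09 against vehicle and -0.31 ± 0.09 against the Low dose (adjusted p = 0.000166 and 0.0141, edgeR), the second of which was lost without High replicate 1 or without Low replicate 1. PRC1, which cross-links midzone fibres, had 136, 141 and 139 CPM at the High dose, against 153, 153 and 156 CPM at the Low dose and 170.0, 167 and 167 CPM in vehicle. It was called lower against vehicle (-0.26 ± 0.08, adjusted p = 0.0126, edgeR) and not against the Low dose (adjusted p = 0.191). ANLN, the scaffold of the contractile ring, had 389, 409 and 421 CPM at the High dose, against 514, 529 and 512 CPM at the Low dose and 553, 546 and 536 CPM in vehicle. Its High libraries were all below the rest, yet it did not pass the test (-0.41 ± 0.17, adjusted p = 0.0806 against vehicle, edgeR). Over the alternative fits its adjusted p against vehicle (edgeR or DESeq2) ran from 2.97e-11 to 0.192. ECT2, which switches on the small GTPase RhoA at the cleavage furrow, changed by -0.15 (adjusted p = 0.354).

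Of 8 members of the spindle checkpoint and the anaphase machinery, SGO2 alone passed the test in the fit of all 54 libraries. SGO2, which protects the bond between sister chromosomes (chr2:200510008-200583782), had 22.8, 23.6 and 29.2 CPM at the High dose, against 33.7, 39.3 and 41.0 CPM at the Low dose and 37.4, 37.7 and 38.2 CPM in vehicle. Its High libraries were below all others, replicate 3 being the highest of them, and the change was -0.57 ± 0.10 against vehicle and -0.59 ± 0.10 against the Low dose (adjusted p = 1.29e-05 and 7.27e-06, edgeR). TTK, the kinase at the head of the checkpoint, had 58.6, 66.1 and 73.0 CPM at the High dose, against 70.8, 74.5 and 69.1 CPM at the Low dose and 77.0, 71.7 and 70.2 CPM in vehicle. Its groups overlapped. The checkpoint kinases BUB1 and BUB1B differed from vehicle by -0.24 ± 0.11 and -0.24 ± 0.10, and CDC20, the activator of the anaphase-promoting complex, by -0.24 ± 0.09 (adjusted p = 0.0982, 0.0863 and 0.0675, edgeR). UBE2C, the ubiquitin-conjugating enzyme of that complex, differed by -0.02, PTTG1 (securin) by -0.03 and ESPL1 (separase, the protease that securin holds back) by -0.09, with adjusted p between 0.412 and 0.919 in edgeR's test. Over the alternative fits the adjusted p against vehicle (edgeR or DESeq2) ran from 1.50e-05 to 0.269 for BUB1, 4.57e-05 to 0.234 for BUB1B and 2.01e-06 to 0.177 for CDC20. Sagunja-tang Low replicate 1, which enters the common estimate of the spread, held 33.9, 29.2 and 366 CPM of these genes. Its fellow replicates held 65.7 and 66.1, 54.1 and 53.8, and 219 and 205 CPM.

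Among cyclins, CDK1 and the entry kinases, 4 of 6 were lower than vehicle and 0 of 6 lower than the Low dose. PLK1, Polo-like kinase 1, had 119, 127 and 119 CPM at the High dose, against 146, 128 and 128 CPM at the Low dose and 172, 153 and 158 CPM in vehicle. The High libraries were below vehicle by a clear gap and close to the Low libraries, with changes of -0.39 ± 0.08 and -0.13 ± 0.08 (adjusted p = 0.000442 against vehicle and 0.274 against the Low dose, edgeR). CCNB1, cyclin B1, had 196, 174 and 168 CPM at the High dose, against 178, 183 and 182 CPM at the Low dose and 211, 216 and 209 CPM in vehicle. Its call against vehicle (-0.23 ± 0.08, adjusted p = 0.0315, edgeR) was lost when any vehicle library, or High replicate 2 or 3, was left out. CCNB2, cyclin B2, had 69.0, 73.7 and 69.5 CPM at the High dose, against 70.2, 68.7 and 70.0 CPM at the Low dose and 82.5, 80.0 and 80.0 CPM in vehicle. It was below vehicle in every library and mixed with the Low libraries. AURKA, the kinase that matures spindle poles, had 108, 116 and 111 CPM at the High dose, against 122, 114 and 113 CPM at the Low dose and 136, 131 and 129 CPM in vehicle. CDK1 itself had 75.6, 74.6 and 79.3 CPM at the High dose, against 60.5, 79.6 and 75.8 CPM at the Low dose and 73.8, 73.6 and 70.0 CPM in vehicle. CDK1 did not pass the test in either comparison (0.09 ± 0.09 against vehicle, adjusted p = 0.535, edgeR), and CCNA2, cyclin A2, differed by -0.14 ± 0.06 (adjusted p = 0.0975). Over the alternative fits the adjusted p of CCNA2 against vehicle (edgeR or DESeq2) ran from 0.00335 to 0.556. Of the chromosomal passenger proteins, the kinase AURKB was lower than vehicle (-0.33 ± 0.10, adjusted p = 0.0156, edgeR), a call that was lost without High replicate 2 or 3, and its partner BIRC5 (survivin) differed by -0.09 (adjusted p = 0.605). The 6 members called against vehicle and not against the Low dose were CCNB1, CCNB2, PLK1, AURKA, AURKB and PRC1.

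The members that fell furthest have long transcripts. The 4 members with a coding transcript of at least 8 kb in GENCODE release 29, MKI67 (12678 bases), ASPM (10887), CENPF (10307) and CENPE (8612), were all called lower, with a median log2 fold change of -1.33 against vehicle and -1.19 against the Low dose. The 1247 genes of that length had medians of -0.10 and -0.14 in the same comparisons, and 20.7% and 21.7% of them were called lower. The 7 members under 2 kb had medians of -0.03 and 0.09, beside 0.06 and 0.07 for the 5091 genes of that length. Across the 38 members Spearman's rho between length and log2 fold change was -0.68 against vehicle and -0.79 against the Low dose, and across 17392 genes it was -0.14 and -0.16; genes of one library share its depth and quality and are not independent. ESPL1, at 6623 bases, was not called. With offsets that remove the smooth relation of counts to transcript length and GC content, CENPE changed by -1.73, MKI67 by -1.30, CENPF by -1.08 and ASPM by -0.71 against vehicle, and by -1.69, -1.07, -0.94 and -0.64 against the Low dose. In that fit 28 members were called against vehicle, all lower, and 18 against the Low dose, of which 16 were lower and CDK1 and KIF2C were higher. The shares of all genes called in that fit are not given here, so these counts are not read as a result about the members.

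**Figure D2:**
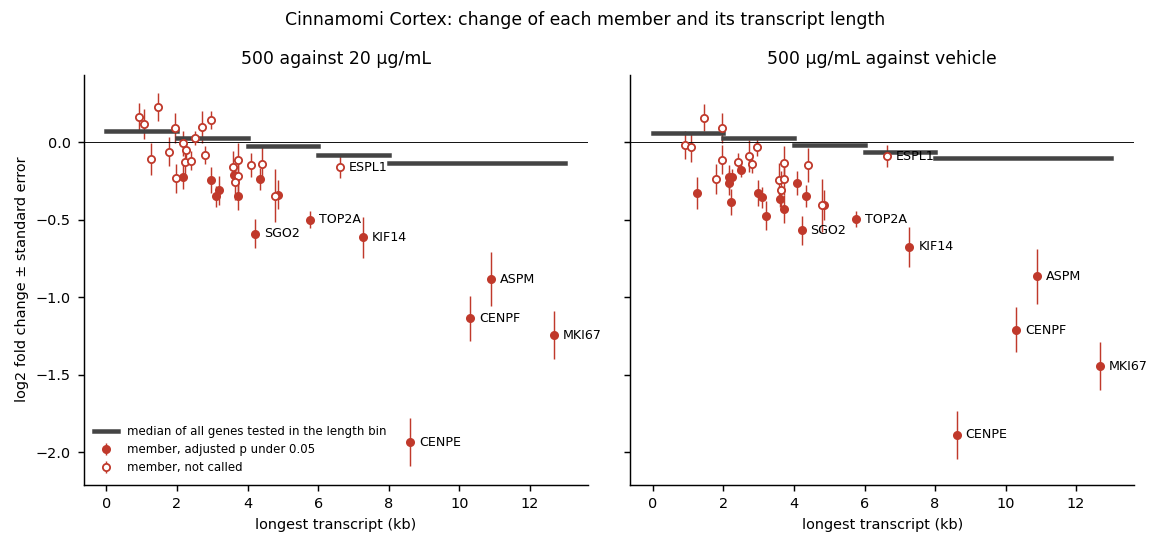
The log2 fold change of Cinnamomi Cortex High, with its SE, is plotted for each of the 38 genes against transcript length in kb, against the Low dose on the left and against vehicle on the right; filled points were called and the grey bars are the medians of all genes in each length class. The members of at least 8 kb lie at -0.87 or below in both panels, far under the bars, and those under 2 kb lie between -0.33 and 0.23.

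The spread between the 3 Cinnamomi Cortex High libraries was small for most members and wide for those that fell the most. The SD of log2(CPM + 1) over these 3 libraries had a median of 0.0641 over the 38 members, beside 0.0917 over all genes. It exceeded 0.2 in CENPE (0.672), CENPF (0.372) and MKI67 (0.287), and in 9.75% of all genes. SGO2 followed with 0.186 and TTK with 0.156. Among all genes tested, 99.8% had a smaller SD in this group than CENPE, 98.9% a smaller one than CENPF and 97.3% a smaller one than MKI67. Replicate 3 was the lowest of the 3 in CENPE, CENPF and MKI67 and the highest in SGO2 and TTK, so no library was low throughout. Over the 38 members replicate 1 was the lowest in 26, replicate 2 in 4 and replicate 3 in 8. The spread did not follow the size of the fall alone: TOP2A (SD 0.0188), KIF20A (0.0265), KIF14 (0.0436) and ASPM (0.0764) were lower by 0.47 or more against vehicle and lay close together. Without replicate 3 the changes against vehicle were -1.59 ± 0.12 for CENPE, -1.03 for CENPF, -1.30 for MKI67 and -0.69 for SGO2, and each remained called. CENPE had its largest SD of the 16 groups with 3 libraries in Cinnamomi Cortex High, and it was the only member with its largest SD in this group. In 30 of 38 members the largest SD was in Sagunja-tang Low, and in vehicle the median SD was 0.0455.

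**Figure D3:**
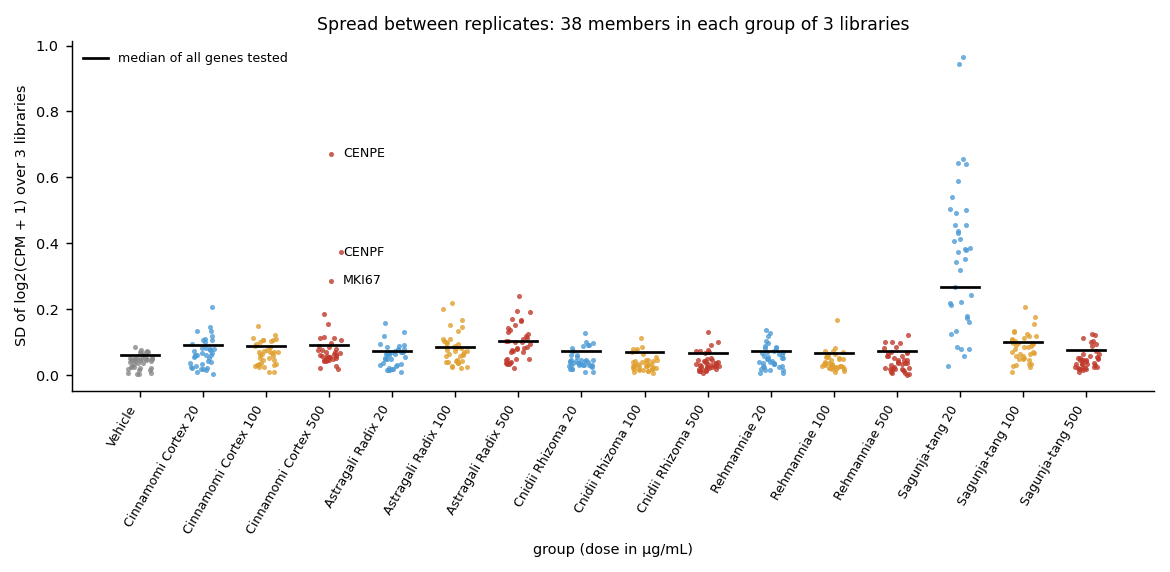
Each point is the SD of log2(CPM + 1) of one of the 38 genes over the 3 libraries of a group, for vehicle and each extract and dose with 3 libraries, and the black line marks the median of all genes. CENPE, CENPF and MKI67 stand above the other members in Cinnamomi Cortex High, and in Sagunja-tang Low 28 members lie above 0.2.

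Along the Cinnamomi Cortex doses, most of the difference in the means of the leading members lay between 100 and 500 µg/mL. CENPE averaged 65.9 ± 2.5 CPM in vehicle, 67.7 ± 4.6 at 20, 62.1 ± 5.1 at 100 and 17.6 ± 7.6 CPM at 500 µg/mL (SD, n = 3 each). MKI67 averaged 332 ± 16.1 CPM in vehicle, 287 ± 27.2 at 20, 260.0 ± 19.2 at 100 and 121 ± 23.0 CPM at 500 µg/mL. TOP2A averaged 463 ± 1.2 CPM in vehicle, 461 ± 33.0 at 20, 440.1 ± 21.2 at 100 and 325 ± 4.3 CPM at 500 µg/mL. The means of CENPE and TOP2A at 20 and 100 µg/mL were near vehicle, while the mean of MKI67 was lower at each dose than at the one before, though it did not pass the test at 20 or 100 µg/mL. Against vehicle, 1 member was called at 20 µg/mL (CCNB2, -0.21 ± 0.04, adjusted p = 0.00878, edgeR, where 0.383% of all genes were called lower) and 4 at 100 µg/mL (CCNB2, PLK1, AURKA and TPX2, by -0.17 to -0.31, where 1.16% of all genes were called lower). Leaving out Low replicate 2 or vehicle replicate 1 left 0 calls at 20 µg/mL, and leaving out Medium replicate 3 or vehicle replicate 1 left 0 at 100 µg/mL. Without Sagunja-tang Low replicate 1 there were 13 at each dose. In that fit 3.12% of all genes were called lower and 2.3% higher at 20 µg/mL, and 4.44% lower and 2.93% higher at 100 µg/mL. Between 100 and 20 µg/mL edgeR called 0 members, with 0 at an unadjusted p under 0.05, where 0.12% of all genes were called.

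No other extract showed a fall of this size. CENPE lay between 55.8 and 77.7 CPM (median 67.1) in the 56 libraries other than Cinnamomi Cortex High and Sagunja-tang Low replicate 1. In those libraries MKI67 lay between 219 and 362 CPM, CENPF between 205 and 291 CPM, TOP2A between 416 and 499.5 CPM, ASPM between 100.0 and 142 CPM and KIF14 between 42.2 and 54.7 CPM. In 17 members all 3 Cinnamomi Cortex High libraries lay below all of these 56, as in 5.63% of all genes, and in 3 members they lay below all 57 others, as in 3.01% of all genes. Between the High and Low doses edgeR called 0 members for Astragali Radix, Cnidii Rhizoma, Rehmanniae Radix Preparata and Samul-tang, with 1, 1, 1 and 2 members at an unadjusted p under 0.05, where 0.28%, 0.228%, 0.805% and 0.736% of all genes were called. Astragali Radix carries the same set code as Cinnamomi Cortex, and the difference of the High to Low change between the 2 extracts was tested as an interaction. It was below 0 and passed the test in 13 members, where 7.67% of all genes did so, and was -1.97 ± 0.21 in CENPE (adjusted p = 2.68e-09, edgeR). Without Sagunja-tang Low replicate 1 the count in either direction was 23, where 14% of all genes passed below 0 and 13.7% above 0.

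**Figure D4:**
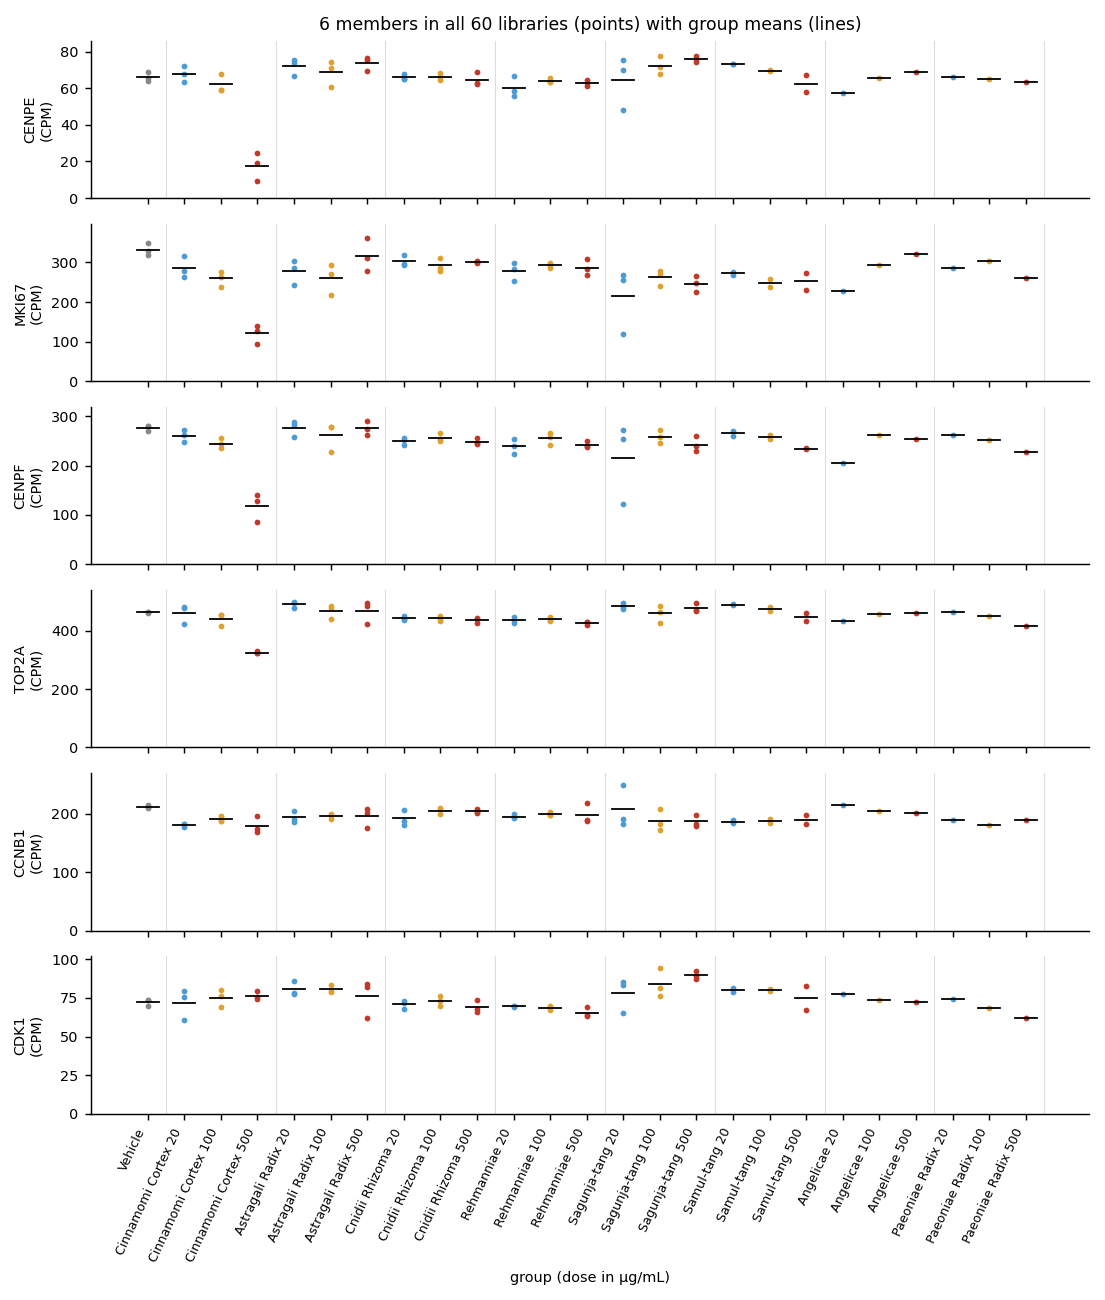
CPM of CENPE, MKI67, CENPF, TOP2A, CCNB1 and CDK1 in each of the 60 libraries, by group, with a line at each group mean. The 3 Cinnamomi Cortex High points are the lowest of all in CENPE and TOP2A, and 1 Sagunja-tang Low point is low in MKI67 and CENPF and high in CCNB1.

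Smaller differences from vehicle recurred across extracts. CCNB2 was below all 3 vehicle libraries in 57 of 57 extract libraries, at 63.0 to 77.6 CPM (median 70.7), against 80.0 to 82.5 CPM in vehicle, and it was called lower in 13 of 18 comparisons with vehicle. PLK1 was below vehicle in 56 of 57, at 110.3 to 168 CPM against 153 to 172 CPM in vehicle, and was called in 9 of 18. TPX2 was below vehicle in 56 of 57 libraries and called in 6 comparisons, and 16 members lay below all vehicle libraries in at least 50 of the 57, as did 6.03% of all genes. These comparisons share the vehicle libraries, and every extract library also differs from vehicle in its set code and may differ in its solvent. At the Low dose the calls were PLK1 for Astragali Radix (-0.28 ± 0.08, 2.03% of all genes called lower), CCNB2 for Rehmanniae Radix Preparata (0.257%) and PLK1 and CCNB2 for Samul-tang (1.22%). At the Medium dose they were CCNB2 for Rehmanniae Radix Preparata (0.12% of all genes called lower) and PLK1, CCNB2 and KIF2C for Samul-tang (0.839%). The counts were 0 for Cnidii Rhizoma Low (0.383% of all genes called in either direction), Cnidii Rhizoma Medium (0.297%) and Astragali Radix Medium (3.94%). Each of these Low and Medium calls was lost without vehicle replicate 1. Without Sagunja-tang Low replicate 1 the counts at the Low and the Medium dose were 7 and 7 for Astragali Radix, 2 and 1 for Cnidii Rhizoma, 8 and 9 for Rehmanniae Radix Preparata and 13 and 12 for Samul-tang. In that fit the shares of all genes called lower were, in the same order, 8.83% and 8.56%, 0.759% and 0.634%, 1.95% and 1.22%, and 7.94% and 7.15%. The shares called higher were 5.25% and 5.26%, 1.03% and 0.731%, 1.71% and 1.71%, and 5.2% and 4.18%. At the High dose edgeR called 0 members for Astragali Radix, with 3 at an unadjusted p under 0.05, where 4.45% of all genes were called in either direction. It called 1 for Cnidii Rhizoma, CCNB2 at -0.21, where 0.502% of all genes were called lower. It called 3 for Rehmanniae Radix Preparata, HMMR at -0.24, TPX2 at -0.20 and CCNB2 at -0.20, where 0.999% of all genes were called lower. For Samul-tang it called 4, PLK1 at -0.31, TPX2 at -0.25, AURKA at -0.21 and CCNB2 at -0.20, where 1.85% of all genes were called lower. Without vehicle replicate 1 the 3 extracts with calls had 0. Without Sagunja-tang Low replicate 1 the counts in either direction were 3, 5, 13 and 15. In that fit 7.22%, 2.81%, 4.07% and 7.43% of all genes were called lower, and 5.4%, 2.67%, 3.55% and 5.89% were called higher.

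Sagunja-tang Low replicate 1 differed from its fellow replicates in almost every member. It was lower than both in 28 members, higher than both in 9 and between them in TOP2A. ANLN had 166 CPM in replicate 1, against 535 and 529 CPM in replicates 2 and 3, and ASPM had 39.6 CPM, against 119 and 131 CPM. MKI67 had 120.2 CPM in replicate 1, against 255 and 268 CPM in the others. CDC20 had 366 CPM in replicate 1, against 219 and 205 CPM, and BIRC5 had 237 CPM, against 133 and 141 CPM. The 9 members that were higher there were CCNB1, CCNB2, PLK1, AURKA, CDC20, UBE2C, PTTG1, AURKB and BIRC5, none with a transcript longer than 2711 bases. Other short members were lower there than in both fellow replicates: CENPA (1452 bases), CDK1 (1948), NUF2 (1969), NDC80 (2172) and NUSAP1 (2409). It was the lowest of all 60 libraries in 19 members and the highest in 6. With it, edgeR called 10 members lower in Sagunja-tang Low against vehicle, where 8.45% of all genes were called lower, led by MKI67 (-0.61 ± 0.15), KIF20A (-0.42), BUB1 (-0.39), PLK1 (-0.33) and KIF23 (-0.31). When the other groups were left out of the model, 0 members and 0 of all genes were called, with 1 member at an unadjusted p under 0.05 in edgeR's test and 13 members called by DESeq2 over all groups. Without replicate 1 there were 12 calls, and MKI67, KIF23 and KIF4A were not among them. In that fit 6.9% of all genes were called lower and 4.49% higher. Leaving out replicate 2 or 3 in place of replicate 1 gave 22 or 24. In those fits replicate 1 weighs more in its group, and the shares of all genes called are not given here. Between Sagunja-tang High and Low, 4 members were higher (ANLN 0.48, BUB1 0.30, ESPL1 0.26 and HMMR 0.19) and 2 lower (BIRC5 -0.35 and CDC20 -0.30), where 7.93% of all genes were called higher and 12.5% lower. Without Low replicate 1 edgeR called 1 member, and none of these 6, and when the other groups were left out of the model it called 0, with 0 at an unadjusted p under 0.05 and 14 called by DESeq2 over all groups. That comparison also held 1 call without High replicate 1 or 3, 3 without High replicate 2, 25 without Low replicate 2 and 27 without Low replicate 3. Without Low replicate 1, 2.96% of all genes were called lower and 3.47% higher. For the other fits the shares of all genes are not given here, so these counts are not read as a result about the members. In Sagunja-tang Low 62.8% of all genes had an SD of log2(CPM + 1) above 0.2.

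**Figure D5:**
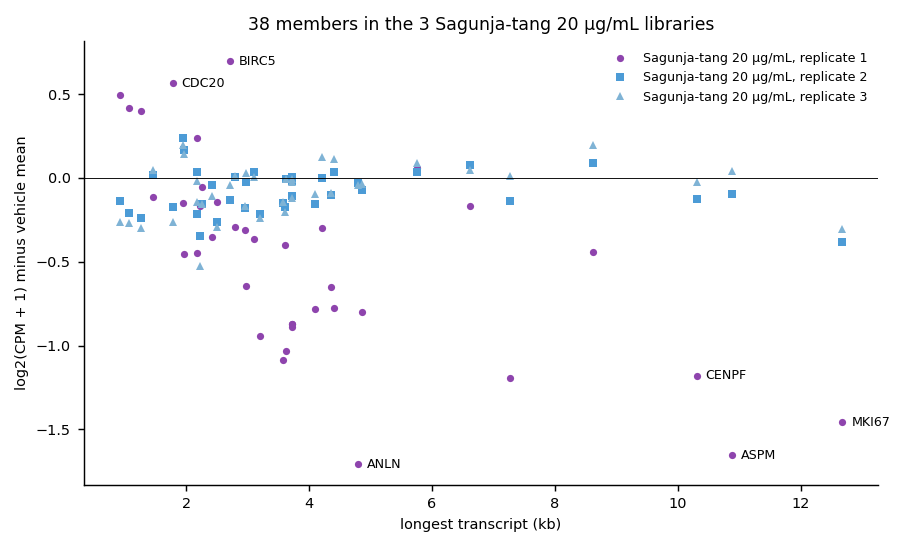
Each point is one of the 38 genes in 1 of the 3 Sagunja-tang libraries at 20 µg/mL, as log2(CPM + 1) minus the vehicle mean, against transcript length in kb. Replicate 1 lies below replicates 2 and 3 in 28 members and above them in 9, of which none is longer than 2711 bases. Some members as short as these 9, such as NUF2 and NDC80, are among the 28.

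In Sagunja-tang Medium, CCNB2 and PLK1 were lower than in vehicle (-0.17 and -0.28, 2.81% of all genes called lower), of which neither remained without vehicle replicate 1. Without Sagunja-tang Low replicate 1, 11 members were called, where 9.4% of all genes were called lower and 8.09% higher. At the High dose of Sagunja-tang 4 members were lower and 2 higher than in vehicle, where 8.11% of all genes were called lower and 8.94% higher, so the counts lie near those of all genes. PLK1 had 112, 110.3 and 114 CPM at the High dose, against 172, 153 and 158 CPM in vehicle, and KIF20A had 99.8, 101 and 107 CPM, against 142, 133 and 139 CPM in vehicle. Both were far below vehicle with no overlap (-0.50 ± 0.08 and -0.42 ± 0.09, adjusted p = 1.66e-05 and 0.00132, edgeR). CDK1 had 89.0, 92.8 and 87.5 CPM, against 73.8, 73.6 and 70.0 CPM in vehicle, and ESPL1 had 31.0, 28.6 and 29.6 CPM, against 24.8, 25.9 and 24.4 CPM in vehicle. These were higher in all 3 libraries (0.32 ± 0.09 and 0.26 ± 0.07, adjusted p = 0.0137 and 0.00726, edgeR), though the call of CDK1 ended without High replicate 2 or vehicle replicate 3. With GC and length offsets CDK1 was at 0.10 (adjusted p = 0.328, edgeR) and no longer called, and ESPL1 was at 0.40. Without the filter on low counts the calls of ESPL1, TPX2 and CCNB2 were lost. TPX2 (-0.21) and CCNB2 (-0.18) were the other 2 called lower. Without Sagunja-tang Low replicate 1 there were 11 lower and 3 higher, where 15.7% of all genes were called lower and 15.1% higher.

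Angelicae Gigantis Radix and Paeoniae Radix had 1 library at each dose, so their differences have no replicate check. In these 6 libraries 0 members differed from the vehicle mean by more than 1.5-fold. Of all genes, 0.811%, 0.679% and 0.668% did so in Angelicae Gigantis Radix Low, Medium and High, and 0.554%, 0.502% and 1.47% in Paeoniae Radix Low, Medium and High. The members' values ran from -0.54 (MKI67 in Angelicae Gigantis Radix Low) to 0.18 (ESPL1 in Angelicae Gigantis Radix High) on the log2(CPM + 1) scale, and the median of the 38 ran from -0.22 to -0.06.

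Genes of related processes in Cinnamomi Cortex High were counted in lists drawn up by the genes' known roles. The lists were chosen with earlier results of these data known, so their shares beside those of all genes are a description and not an independent test. Of 15 condensin and cohesin genes, 5 were lower and 0 higher than in vehicle, and 4 were lower than at the Low dose. SMC4, a core subunit of condensin, averaged 69.0 ± 2.4 CPM at the High dose, against 145 ± 3.3 CPM at the Low dose and 144 ± 4.3 CPM in vehicle (SD, n = 3 each), a change of -1.05 ± 0.05 against vehicle (adjusted p = 1.6e-20, edgeR). Of 20 other spindle and cytokinesis genes, 11 were lower and 0 higher than in vehicle, and 7 were lower than at the Low dose. KIF20B, a midzone kinesin, averaged 52.8 ± 4.7 CPM at the High dose, against 114 ± 7.0 CPM at the Low dose and 108 ± 4.2 CPM in vehicle, a change of -1.02 ± 0.06 against vehicle. Of 38 other kinetochore genes, 8 were lower and 2 higher than in vehicle, with a median of -0.10, among them SPDL1 (-0.65) and KNL1 (-0.57). Against the Low dose 7 of these 38 were lower and 1 higher, with a median of -0.01. Of 16 subunits of the anaphase-promoting complex, 0 were lower and 2 higher (CDC26 0.30 and CDC16 0.17), and 0 were called against the Low dose. Of 32 S phase and replication genes, 7 were lower and 0 higher than in vehicle, with CLSPN at -0.61 and POLA1 at -0.40, and 9 were lower than at the Low dose. Of 24 regulators of mitotic transcription and entry, 5 were lower and 1 higher than in vehicle (MYBL2 -0.54, E2F2 -0.43, FOXM1 -0.31 and LIN52 0.34), and against the Low dose 1 was lower and 3 were higher (CKS2 0.59, LIN37 0.40 and CDC25C 0.35). Of 14 p53 targets and inhibitors of cyclin-dependent kinases, 7 were higher and 1 lower than in vehicle, and 5 were higher and 1 lower than at the Low dose. CDKN1A, which encodes the inhibitor p21, averaged 40.6 ± 1.4 CPM at the High dose, against 19.1 ± 1.5 CPM at the Low dose and 21.5 ± 0.2 CPM in vehicle, a rise of 0.93 ± 0.09 on the log2 scale against vehicle and 1.10 ± 0.10 against the Low dose. These shares stand beside the same 10.9% of all genes called lower and 11.8% called higher in the comparison with vehicle, and 11.2% lower and 10.3% higher in that with the Low dose; the counts of mitotic regulators against the Low dose are near or under those shares.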

How the data were processed

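RNA was sequenced in bulk from SW1783 cells, and the deposited table gives expected counts per Ensembl gene, which the authors obtained with RSEM 1.3.3 and STAR 2.7.3a on hg38 after Trim Galore 0.6.5, per the submitters' processing notes. The table was used for its 60 columns of these libraries; its other 219 columns were not used. Expected counts were rounded to whole numbers (90.7% were whole already). Rows were matched to symbols through the Ensembl identifier. All 54 libraries of the 19 groups with replicates entered one edgeR 4.0.16 fit (TMM factors, filterByExpr, glmQLFit with robust = TRUE, glmQLFTest in R 4.3.3), with 35 residual degrees of freedom, a biological coefficient of variation of 0.0946 and Benjamini-Hochberg adjustment over 17516 genes. A gene was called at an adjusted p under 0.05. CPM used TMM factors over the 60 libraries, and SDs used log2(CPM + 1). Transcript length is that of the longest coding transcript in GENCODE release 29, and CPM is not divided by length, so it compares libraries and not genes.

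The 38 genes and all lists were chosen with earlier results of these data known. Members described with values per library were those with the 10 largest changes of Cinnamomi Cortex High against vehicle or Low among the called, the 5 widest between its replicates and the 5 called with the smallest changes; others were added after their values were seen. In every other comparison up to 5 called members, and in every related list up to 4 called genes, were named by size of change. Pseudogene and paralog copies held at most 0.459 CPM, except a UBE2C copy with up to 3.25 CPM. Replicate libraries differed by more than counting noise, so none was counted as a copy. The tests were checked on simulated counts. Alternatives were other size factors, no filter, GC and length offsets, a replicate block, the compared groups alone, DESeq2 1.42.0 and leaving out 1 library. The libraries left out in turn were those of vehicle, of the High and Low groups with replicates and of Cinnamomi Cortex Medium. Offsets for length alone or GC alone were added after the data were seen.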

Additional observations from a re-analysis of the deposited data

Results flagged for a closer look

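The High to Low change of Cinnamomi Cortex differed from that of Astragali Radix, an extract of the same set, in 13 members, all further below 0 in Cinnamomi Cortex, by an interaction term in edgeR's quasi-likelihood test adjusted over all genes. The difference in log2 fold change was -1.97 in CENPE, -1.43 in MKI67, -1.13 in CENPF, -0.97 in ASPM, -0.68 in KIF14, -0.54 in SGO2 and -0.43 in TOP2A. It was -0.38 in NUF2, -0.37 in KIF20A, -0.36 in KIF23, -0.34 in HMMR, -0.33 in KIF4A and -0.30 in TPX2. Against this, 7.67% of all genes were called below 0 in the same test. NUF2, KIF20A, KIF23 and KIF4A each lost the call when one or another single library of the 4 groups was left out, and the counts without 1 library ran from 9 to 23. Over 21 alternative fits, those without 1 library among them, KIF20A and KIF23 each lost the call in 13 and NUF2 in 12. KIF4A lost it in 3, and TPX2 and HMMR in 1 each.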

How the results depend on the processing

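In Cinnamomi Cortex High, the count of members called kept within 1.5 times that reported under other size factors, no filter, offsets, DESeq2 and the compared groups alone: 19 to 28 against vehicle and 12 to 19 against the Low dose. Leaving out 1 library gave 19 to 30 against vehicle, 12 to 24 against the Low dose and 9 to 23 for the difference from Astragali Radix, and the difference held 8 without a filter. CENPE ranged from -2.19 to -1.59 against vehicle, CENPF from -1.36 to -1.03 and MKI67 from -1.56 to -1.29 over all alternatives. Libraries were not treated as paired by replicate number, since no comparison had every pair of the same number correlated above 0.1. Single pairs reached 0.207 (replicate 1 of Cinnamomi Cortex Medium and Low), so this cutoff cannot show that the numbers carry no pairing. At each Cinnamomi Cortex dose, replicate 1 differed more from replicates 2 and 3 than replicates 2 and 3 did from each other. With a replicate block 21 members were called against vehicle and 15 against the Low dose. With a block within the set, the call of 37 of the 38 against the Low dose stayed the same.

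Other counts against vehicle depended on the setting, and the cause was not tested. The shares of all genes called under most of these settings are not given here, so the counts describe the settings and not the members. With GC and length offsets they were 3 for Astragali Radix High, 7 for Cnidii Rhizoma High, 13 for Rehmanniae Radix Preparata High, 13 for Sagunja-tang High, 18 for Samul-tang High, 13 for Cinnamomi Cortex Medium and 103 over the 11 other Medium and Low comparisons (40 with DESeq2, 21 as reported). With only the groups compared they were 16 for Cnidii Rhizoma, 23 for Rehmanniae Radix Preparata, 18 for Sagunja-tang and 10 for Samul-tang at the High dose, and 12 for Cinnamomi Cortex Medium. Without a filter they were 0 for Cnidii Rhizoma and Rehmanniae Radix Preparata, 1 for Samul-tang and 2 for Cinnamomi Cortex Medium. With library size alone they were 0 for Rehmanniae Radix Preparata and Samul-tang and 2 for Cinnamomi Cortex Medium. Leaving out 1 library gave 0 to 3 for Astragali Radix, 0 to 5 for Cnidii Rhizoma, 0 to 13 for Rehmanniae Radix Preparata, 5 to 14 for Sagunja-tang, 0 to 15 for Samul-tang, 0 to 13 for Cinnamomi Cortex Medium and 9 to 95 over the other 11. The last range rests on 4 fits, and Medium libraries of extracts other than Cinnamomi Cortex were not left out.

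Between High and Low, Sagunja-tang had 11 with a replicate block within the set, 14 with DESeq2, 0 with only the groups compared and 1 to 27 without 1 library. Cnidii Rhizoma had 1 with only the groups compared, and Rehmanniae Radix Preparata had 1 with offsets and 0 to 1 without 1 library. CDC20 in Sagunja-tang High against Low ranged from -0.45 to 0.010 without 1 library, the last without Sagunja-tang Low replicate 1. Depth was similar across libraries and all members had over 9 CPM in each, so counting noise limits these values less than the number of libraries.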
